A study of Mus musculus with 6 samples.

Results

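Of 10 genes tied to genomic imprinting, 9 could be read on the array: Phlda2, Igf2, Peg3, Peg10, Plagl1, Grb10, Dlk1, Mest and Zfp57. A member was any gene of this list with a probe set whose platform annotation gives exactly 1 gene symbol, which left 19 probe sets and 9 of the 18193 genes tested. The tenth, H19, has a single probe set that the annotation assigns to both H19 and Mir675, so no value is given for it. Signals came from 6 Affymetrix 3' expression arrays of OLV2-1, a single line of mouse embryonic stem cells in which the fluorescent protein Venus was knocked into Oct4 (Pou5f1). All groups therefore carried the reporter and all were sorted by flow cytometry as Venus-positive, with 2 arrays a group. The ESC group held undifferentiated embryonic stem cells, which the sorting protocol also calls CD31-positive (CD31 is the protein of Pecam1). EpiSC-like cells, where EpiSC stands for epiblast stem cell, came from aggregates after 3 days of SFEBq, a serum-free floating culture for neural differentiation, and were sorted as Pecam1-negative. The Day7_Oct4-Venus+ group came from aggregates after 7 days of SFEBq, dissociated with EDTA alone and with no Pecam1 gate named. Whether the 2 arrays of a group stem from separate cultures is not stated in the labels. The p-values then reflect just the spread among these arrays, which may be technical.

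Imprinted genes are transcribed mainly from one parental chromosome. The choice follows DNA methylation that is laid down in egg or sperm at imprinting control regions and is kept through the divisions of the early embryo. Many such genes set fetal and placental growth: paternally expressed ones tend to promote it and maternally expressed ones to restrain it. In mice Phlda2 and H19 are expressed from the maternal copy, and Igf2, Peg3, Peg10, Plagl1, Dlk1 and Mest from the paternal copy. Grb10 is expressed from the maternal copy in most tissues and from the paternal copy in neurons. Zfp57 encodes a zinc finger protein that keeps methylation at imprinting control regions, so no parental copy is named for it. These arrays read the RNA of both copies together and cannot show which copy was transcribed.

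The ZFP57 protein binds the methylated hexamer TGCCGC, and promoter windows of 5 members are shown with every match to that hexamer, on either strand, in capitals. Of the 10 genes, 8 had windows in a RefSeq promoter table of build GRCm38.p6, each running from 250 bases before to 50 bases after an annotated start. Phlda2 is shown because it was the member called by the test below, and Mest, Plagl1, Grb10 and Igf2 because a window of theirs holds the hexamer. The windows are, in order, chr7:143502475-143502774 on the minus strand, chr6:30737800-30738099 on the plus strand, chr10:13090582-13090881 on the plus strand, chr11:12037371-12037670 on the minus strand and chr7:142661222-142661521 on the minus strand.
Phlda2: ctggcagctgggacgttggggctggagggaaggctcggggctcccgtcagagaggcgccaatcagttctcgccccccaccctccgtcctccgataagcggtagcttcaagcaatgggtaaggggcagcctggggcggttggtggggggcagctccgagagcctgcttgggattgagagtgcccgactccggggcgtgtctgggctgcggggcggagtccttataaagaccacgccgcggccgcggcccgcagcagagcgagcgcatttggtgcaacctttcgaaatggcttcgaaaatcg
Mest: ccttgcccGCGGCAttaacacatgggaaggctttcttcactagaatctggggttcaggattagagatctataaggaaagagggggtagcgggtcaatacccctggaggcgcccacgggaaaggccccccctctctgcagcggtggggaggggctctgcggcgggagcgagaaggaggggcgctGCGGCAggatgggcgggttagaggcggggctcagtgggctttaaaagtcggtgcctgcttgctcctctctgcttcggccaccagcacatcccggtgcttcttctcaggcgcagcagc
Plagl1: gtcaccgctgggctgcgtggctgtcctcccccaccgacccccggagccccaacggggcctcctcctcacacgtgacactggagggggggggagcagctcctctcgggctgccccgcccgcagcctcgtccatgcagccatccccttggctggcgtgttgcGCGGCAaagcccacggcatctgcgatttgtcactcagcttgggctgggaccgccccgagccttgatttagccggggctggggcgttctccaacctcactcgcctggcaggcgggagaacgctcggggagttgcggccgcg
Grb10: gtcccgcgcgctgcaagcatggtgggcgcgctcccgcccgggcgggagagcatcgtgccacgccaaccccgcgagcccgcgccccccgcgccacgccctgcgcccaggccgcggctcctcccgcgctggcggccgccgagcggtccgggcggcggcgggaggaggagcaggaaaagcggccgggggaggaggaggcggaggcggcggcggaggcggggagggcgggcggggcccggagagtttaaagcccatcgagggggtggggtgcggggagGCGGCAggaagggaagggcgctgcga
Igf2: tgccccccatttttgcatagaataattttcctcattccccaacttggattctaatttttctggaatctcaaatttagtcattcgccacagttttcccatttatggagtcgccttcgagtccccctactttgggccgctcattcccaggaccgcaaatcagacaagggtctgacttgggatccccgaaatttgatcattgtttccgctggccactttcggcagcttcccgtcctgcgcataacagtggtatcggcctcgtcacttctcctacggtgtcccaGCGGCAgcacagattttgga
The Mest window held 2 matches, the Plagl1, Grb10 and Igf2 windows 1 each and the Phlda2 window 0. Over the 32851 windows listed, 11.6% held at least 1 match and 1.53% held 2 or more. Of all 16 member windows 5, from 4 genes, held a match. These include the Mest window shown and another that overlaps it and holds the same matches. The windows of Mest, Plagl1, Grb10 and Igf2 were picked for a match, so their counts cannot be set against these shares. The windows differ in CG dinucleotides, which the hexamer contains: 26 in Phlda2, 17 in Mest, 26 in Plagl1, 45 in Grb10 and 14 in Igf2, against a median of 7 over all windows. Of the 5543 windows with at least as many as Phlda2, 31% held the hexamer. The Mest and Igf2 windows shown have fewer than Phlda2. Mest has another window that overlaps the one shown, and Mest and Grb10 each have a further one with 0 matches. The other 3 Igf2 windows, the Peg3 and Dlk1 windows and all 3 Zfp57 windows held 0 matches. A match is a description of these letters only.

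The arrays were alike in scale but fell into 2 sets by their maximum signal. Each had been scaled to the same trimmed mean before deposition, and the median probe set read 63.99 to 76.3 intensity units. The 3 replicate 1 arrays had maximum signals of 30793 to 36841 and the 3 replicate 2 arrays of 63296 to 66643, so differences of the members are also given within each set. The poly-A controls, which are added to the RNA before labelling, did not follow these sets: they read 73.3 on ESC replicate 2, 76.9 on EpiSC-like replicate 2 and 826 on day 7 replicate 2, against 591 to 721 on the replicate 1 arrays. Differences within the replicate 2 set that involve day 7 therefore compare arrays that differ in these controls, and the part of this in the values was not tested. The labelled cell types were checked on marker lists. Of 6 epiblast stem cell markers the test below called 3 higher in EpiSC-like cells than in ESC, where 1.33% of all genes were. By log2 difference 5 of the 6 were above 0, with a median of 1.95. The summed signal of the 6 was 35227 and 43627 in EpiSC-like cells, against 20717 and 23883 in ESC. Of 8 naive pluripotency markers 3 were called lower in EpiSC-like cells, where 0.572% of all genes were. All 8 were below 0, with a median of -1.74. Their sums were 27399 and 24769, against 58550 and 77377 in ESC. At day 7 the naive marker sums were 38808 and 44781 and the epiblast marker sums, at 23401 and 21908, were within the range of the 2 ESC arrays. Most of each epiblast sum was Dnmt3b and Pou5f1, and Pou5f1 is on the naive list too. By log2 difference, 5 of the 6 epiblast markers were above 0 at day 7 against ESC, with a median of 1.13. Fgf5, the 1 called, read 409 and 215 at day 7, against 26.2 and 25.9 in ESC. Of 6 neural progenitor markers 2 were called higher in EpiSC-like cells and 4 at day 7 against ESC, where 1.33% and 0.764% of all genes were. By log2 difference 6 and 5 of the 6 were above 0. Their sums were 398 and 423 in ESC, 1726 and 2118 in EpiSC-like cells, and 1638 and 2488 at day 7. The difference between the 3' and 5' actin probe sets, which grows as RNA shortens, was 0.71 and 0.94 on the log2 scale at day 7 and 0.46 to 0.58 on the other 4 arrays. For Gapdh the same difference was -0.12 and -0.18 at day 7, within the -0.36 to 0.005 of the other 4 arrays. Changes in the share of a cell type and in RNA per cell cannot be told apart in such bulk samples.

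**Figure D1:**
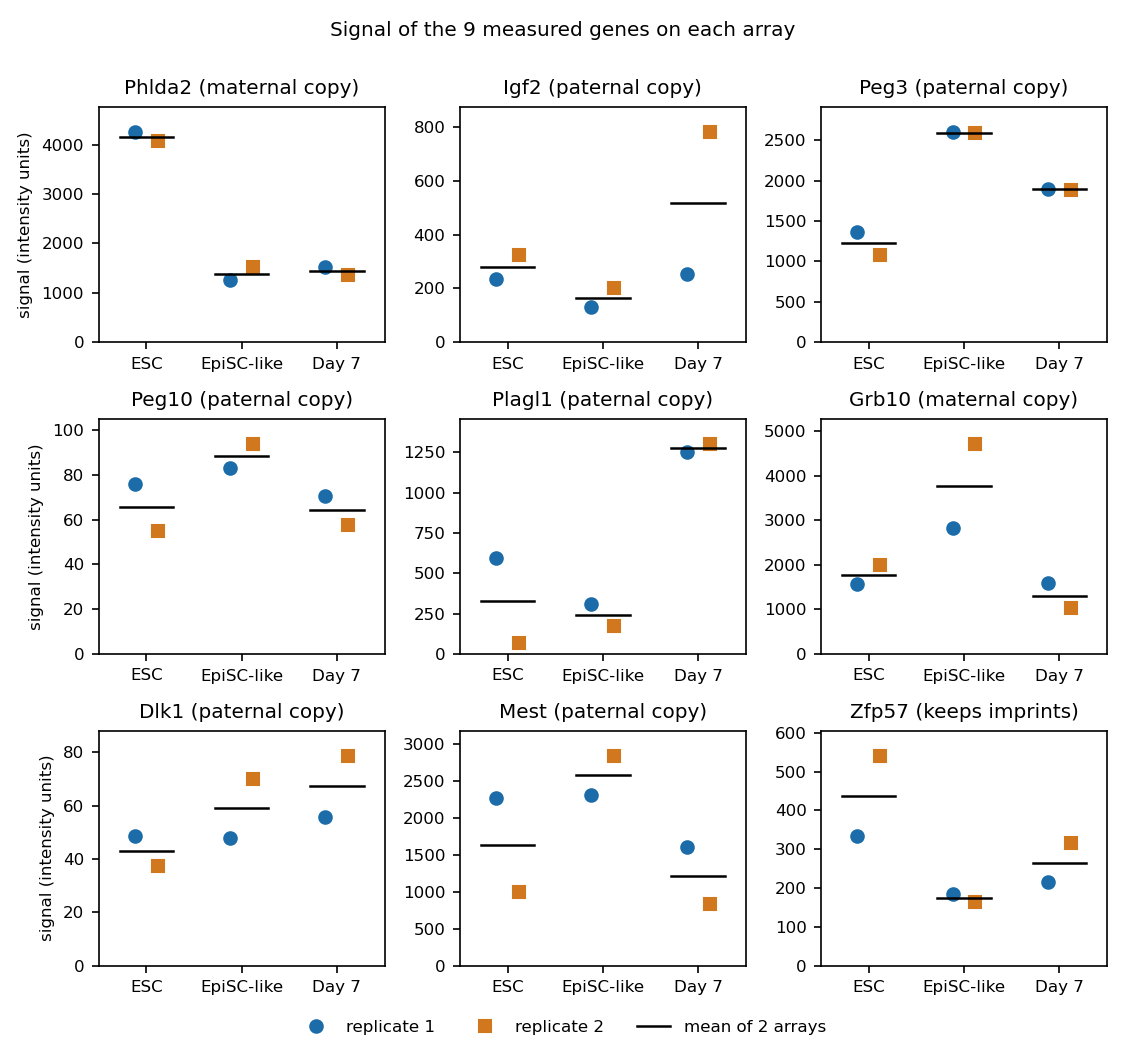
Signal in intensity units (linear axis from 0) of the 9 measured genes on each of the 6 arrays, with circles for replicate 1, squares for replicate 2 and a line for the mean of 2 arrays. Phlda2 read 4069 or more on both ESC arrays and at most 1524 on the other 4, Peg3 was highest on both EpiSC-like arrays, and Plagl1 and Mest differed widely between the 2 ESC arrays.

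Phlda2 was the only one of the 9 genes to pass the test, and it was lower at both stages of the culture than in ESC. Phlda2 encodes a small pleckstrin homology domain protein that restrains growth of the mouse placenta. It read 4250 and 4069 intensity units in ESC, 1259 and 1516 in EpiSC-like cells, and 1524 and 1353 at day 7. Every ESC array was above every array of the other groups, and EpiSC-like and day 7 arrays overlapped. Its mean was 1388 ± 181 in EpiSC-like cells and 4159 ± 128 in ESC (SD, n = 2 arrays each), a ratio of 0.334. Values were compared as log2(signal + 16), which understates the change of dim genes, with limma's moderated test over all 18193 genes and Benjamini-Hochberg adjustment at a threshold of 0.05. Phlda2 fell by 1.58 ± 0.23 (SE) on that scale in EpiSC-like cells (adjusted p = 0.0348), with -1.74 and -1.41 in the replicate 1 and replicate 2 sets. At day 7, with a mean of 1438 ± 121 against 4159 ± 128 in ESC, it fell by 1.52 ± 0.23 (adjusted p = 0.0465), with -1.47 and -1.58 in the 2 sets. Day 7 minus EpiSC-like was 0.05 ± 0.23 (adjusted p = 0.949; 0.27 and -0.16 in the sets), a difference smaller than its error.

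The size of the Phlda2 difference varied little with the settings, but its call did. Over 17 alternative settings EpiSC-like minus ESC ranged from -1.73 to -1.45 on the log2 scale, and day 7 minus ESC from -1.74 to -1.44. Both calls were lost in limma with the replicate number as a block (adjusted p = 0.0608 and 0.0755), with a pseudocount of 1 (0.0961 and 0.119), and without any single array (0.0789 to 0.175 and 0.0841 to 0.269). Summed signals of the trophoblast marker list, given because Phlda2 is a placental gene, were 4892 and 4175 in ESC, 3691 and 2209 in EpiSC-like cells, and 4558 and 3569 at day 7. Most of each sum was Tfap2c, which embryonic stem cells also express (4482 and 3656 in ESC, 2992 and 1677 in EpiSC-like cells, 3864 and 2918 at day 7). For the 8 measured genes of the list limma called 0 in each comparison. Of all genes it called 1.9% in EpiSC-like cells and 1.05% at day 7 against ESC. Tpbpa and Elf5, defining trophoblast genes, stayed at or below 55.4 and 31.0 on every array. Hand1 read 122 and 181 in ESC, 93.9 and 85.8 in EpiSC-like cells, and 99.8 and 91.1 at day 7, lower at both stages than in ESC as Phlda2 was. Eomes read 179 and 159 in ESC, 508 and 243 in EpiSC-like cells, and 493 and 346 at day 7, and Gata3 read at most 5.01 on the ESC and EpiSC-like arrays and 30.85 and 48.65 at day 7. Cdx2 and Plac1 lay between 7.55 and 101 on all arrays. The part of such cells in the Phlda2 values was not tested.

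Grb10, the other measured gene expressed from the maternal copy, encodes an adaptor protein that dampens signalling by the insulin and insulin-like growth factor receptors. Its brightest probe set read 1571 and 1988 in ESC, 2820 and 4719 in EpiSC-like cells, and 1593 and 1027 at day 7. Both EpiSC-like arrays were above all others, while day 7 and ESC overlapped. The group means ran 3770 ± 1343 for EpiSC-like cells, 1779 ± 295 for ESC and 1310 ± 400 for day 7 (SD, n = 2), and the last 2 did not differ beyond their spread. EpiSC-like minus ESC was 1.04 ± 0.36 on the log2 scale (adjusted p = 0.218; 0.84 and 1.24 in the sets). Day 7 minus EpiSC-like was -1.5 ± 0.36 (adjusted p = 0.151; -0.82 and -2.18 in the sets). Day 7 minus ESC was -0.46 ± 0.36 (adjusted p = 0.547; 0.02 and -0.94 in the sets). None of these passed in limma. The day 7 minus EpiSC-like difference passed when genes below the median of mean signal were left out (adjusted p = 0.0449). The other 2 Grb10 probe sets were dim, between 28.9 and 135 on all arrays, and gave 0.36 and 0.48 for EpiSC-like minus ESC, -0.25 and 0.02 for day 7 minus EpiSC-like, and 0.11 and 0.50 for day 7 minus ESC. With the mean of the 3 probe sets day 7 minus EpiSC-like was -0.58.

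**Figure D2:**
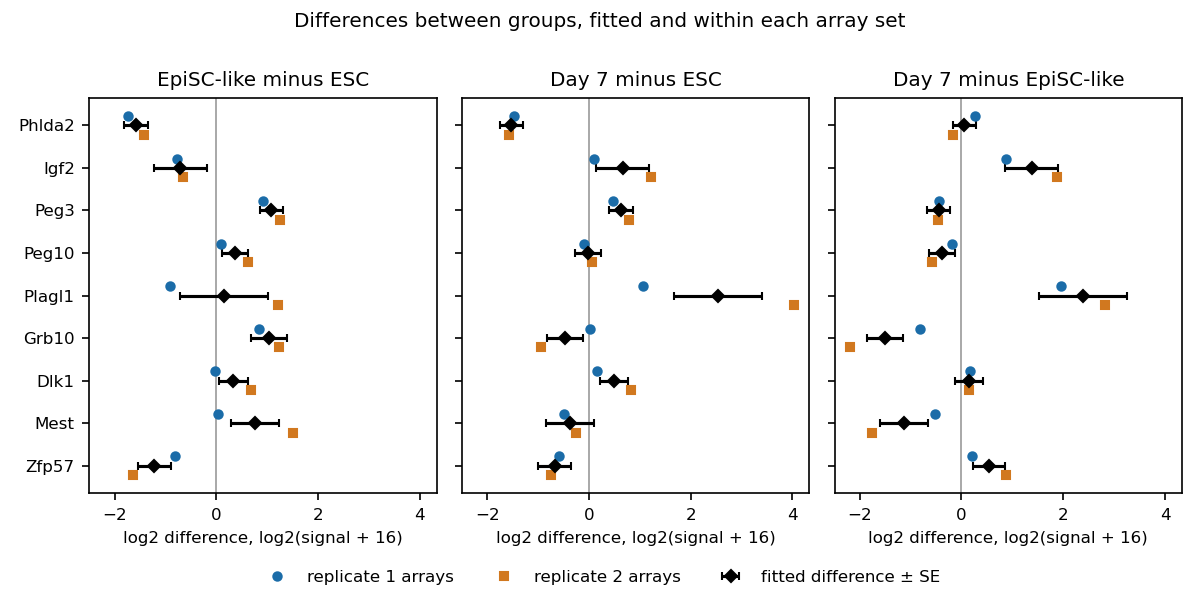
Log2 differences of the 9 genes on the log2(signal + 16) scale in the 3 comparisons. Diamonds with bars are fitted differences ± SE over 6 arrays, circles and squares the differences within the replicate 1 and replicate 2 arrays. Phlda2 lies near -1.5 in both sets against ESC, whereas for Plagl1 EpiSC-like minus ESC is -0.91 in one set and 1.21 in the other.

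Peg3 had the highest readings in EpiSC-like cells and intermediate ones at day 7. Peg3 encodes a zinc finger protein expressed from the paternal copy, known in mice for effects on growth and maternal behaviour. Its brightest probe set read 1367 and 1082 in ESC, 2599 and 2589 in EpiSC-like cells, and 1902 and 1882 at day 7, so that no 2 groups overlapped. The means were 2594 ± 6.75 in EpiSC-like cells and 1224 ± 202 in ESC (SD, n = 2), a ratio of 2.12. EpiSC-like minus ESC was 1.08 ± 0.23 (adjusted p = 0.0801; 0.92 and 1.25 in the sets) and did not pass. It passed with a pseudocount of 64 (adjusted p = 0.0269), when genes below the 25th percentile (0.0435) or the median (0.0191) of mean signal were left out, and with limma's trended, robust moderation (0.0195). Day 7 minus ESC was 0.63 ± 0.23 (adjusted p = 0.226; 0.47 and 0.79 in the sets) and day 7 minus EpiSC-like -0.45 ± 0.23 (adjusted p = 0.450; -0.45 and -0.46). Of the 5 Peg3 probe sets, the 3 brightest had EpiSC-like minus ESC differences of 1.08, 0.96 and 0.95, and the other 2 read at most 10.3 on any array.

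Mest and Plagl1, both expressed from the paternal copy, differed widely between the 2 ESC arrays. Mest, a hydrolase-like protein of the embryonic mesoderm, read 2266 and 995 in ESC, 2310 and 2843 in EpiSC-like cells, and 1609 and 833 at day 7. ESC overlapped with day 7. Between EpiSC-like cells and ESC the difference was 0.76 ± 0.48 (adjusted p = 0.516), with 0.03 in the replicate 1 set and 1.5 in the replicate 2 set. Day 7 minus EpiSC-like was -1.13 ± 0.48 (adjusted p = 0.357; -0.52 and -1.75 in the sets), and day 7 minus ESC -0.37 ± 0.48 (adjusted p = 0.731; -0.49 and -0.25).

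Plagl1 encodes a zinc finger transcription factor that regulates other imprinted genes in mice. Its brightest probe set read 592 and 65.0 in ESC, 309 and 171 in EpiSC-like cells, and 1251 and 1303 at day 7. Both day 7 arrays were above all others, while ESC and EpiSC-like arrays overlapped. Day 7 minus ESC was 2.54 ± 0.86 (adjusted p = 0.198; 1.06 and 4.02 in the sets), and day 7 minus EpiSC-like was 2.39 ± 0.86 (adjusted p = 0.301; 1.96 and 2.82 in the sets). Neither passed in limma. EpiSC-like minus ESC was 0.15 ± 0.86 (adjusted p = 0.966) on the log2 scale although the ratio of mean signals was 0.730, and the replicate 1 and 2 sets gave opposite signs (-0.91 and 1.21). By the Affymetrix naming convention the x in this probe set's name marks probes that may also match other sequences. The other 2 Plagl1 probe sets read at most 41.1 on any array and showed no such day 7 level (day 7 minus ESC of 0.09 and -0.05).

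**Figure D3:**
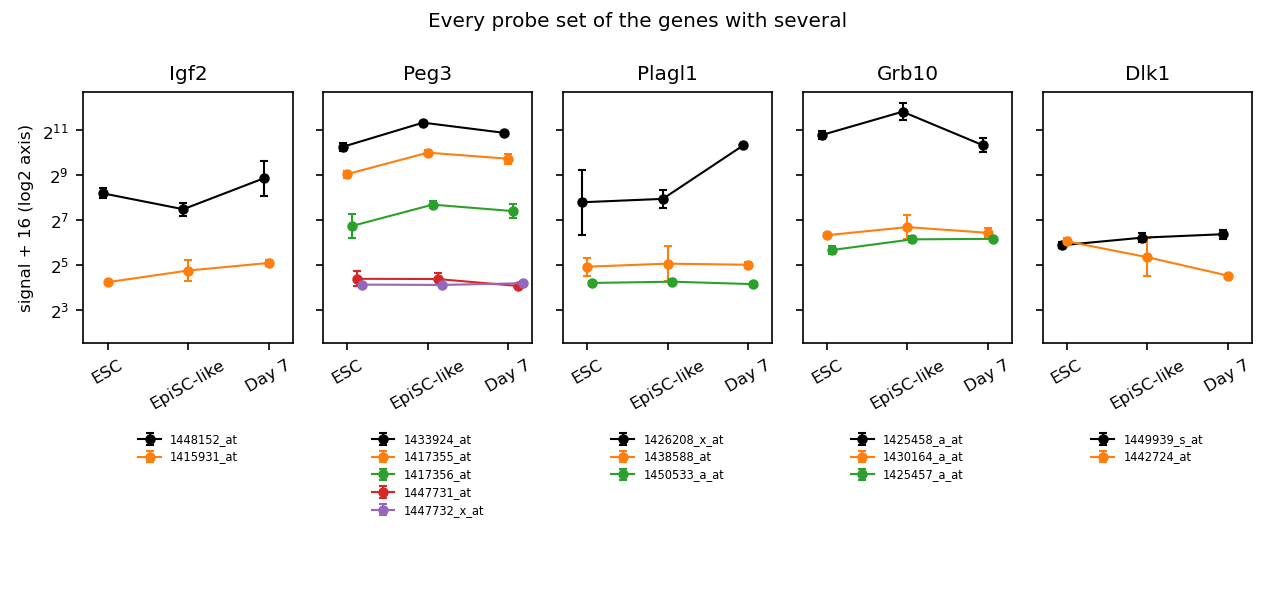
Signal + 16 (log2 axis) of every probe set of the 5 genes that have several, as geometric means of 2 arrays with bars for the lower and higher array, with black for the brightest probe set. The 3 brightest Peg3 probe sets share 1 shape over the 3 groups, whereas the Plagl1 level at day 7 appears on 1 of 3 probe sets. Levels of different probe sets cannot be set against each other.

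Igf2, the paternally expressed fetal growth factor, read 236 and 324 in ESC, 131 and 201 in EpiSC-like cells, and 255 and 782 at day 7. The 2 EpiSC-like arrays were below all others, and day 7 and ESC overlapped. For EpiSC-like minus ESC the difference was -0.71 ± 0.52 (adjusted p = 0.593; -0.77 and -0.65 in the sets). Day 7 minus EpiSC-like was 1.38 ± 0.52 (adjusted p = 0.316; 0.88 and 1.88 in the sets) and day 7 minus ESC 0.67 ± 0.52 (adjusted p = 0.551; 0.11 and 1.23). The high day 7 reading is that of replicate 2, and without it day 7 minus ESC was -0.11. On the same array the extraembryonic endoderm markers stood high. Their 11 members summed to 4526 and 3931 on the ESC arrays, 2310 and 2886 on the EpiSC-like arrays, and 5542 and 19935 on the day 7 arrays. Most of each sum was Sparc and Col4a1. Sparc read 3616 and 3233 in ESC, 1317 and 2032 in EpiSC-like cells, and 2920 and 8610 at day 7. Col4a1 read 541 and 380, 418 and 322, and 1853 and 7417 in the same order. Ttr and Afp read at most 19.2 and 13.5 on the ESC and EpiSC-like arrays. Ttr read 90.8 and 1125 and Afp 64.3 and 471 on the 2 day 7 arrays, while Gata4 stayed between 17.9 and 63.0 on all 6 arrays. For day 7 against ESC limma called 0 of the 11 markers and 1.05% of all genes. An unadjusted p under 0.05 was held by 8 of the 11, where 18.3% of all genes had one. The part of these markers in the Igf2 values was not tested. The second Igf2 probe set read at most 21.4 on any array and gave 0.52 for EpiSC-like minus ESC, the opposite sign. With the mean of both probe sets that difference was -0.09.

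Peg10 and Dlk1 were dim. Peg10, a retrotransposon-derived gene needed for the mouse placenta, read 76.2 and 54.8 in ESC, 83.0 and 93.9 in EpiSC-like cells, and 70.8 and 57.5 at day 7. The difference EpiSC-like minus ESC was 0.37 ± 0.25 (adjusted p = 0.556; 0.10 and 0.63 in the sets). For day 7 minus ESC it was -0.02 ± 0.25 (adjusted p = 0.984; -0.09 and 0.05) and day 7 minus EpiSC-like -0.38 ± 0.25 (adjusted p = 0.556; -0.19 and -0.58). Dlk1, a transmembrane protein related to Notch ligands, read 48.6 and 37.3 in ESC, 47.9 and 70.1 in EpiSC-like cells, and 55.8 and 78.8 at day 7. Its EpiSC-like minus ESC difference was 0.34 ± 0.28 (adjusted p = 0.643; -0.01 and 0.69 in the sets). Against ESC the day 7 difference was 0.49 ± 0.28 (adjusted p = 0.408; 0.15 and 0.83) and day 7 minus EpiSC-like 0.15 ± 0.28 (adjusted p = 0.860; 0.17 and 0.14). Its second probe set gave day 7 minus ESC of -1.53, the opposite sign. These readings lie near the median signal of the arrays, and detection calls were not used here, so presence or absence of either RNA cannot be stated.

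Zfp57, the regulator among the 10, read 334 and 541 in ESC, 185 and 164 in EpiSC-like cells, and 216 and 315 at day 7. Both ESC arrays were above all others and both EpiSC-like arrays below all others. The mean was 174 ± 14.5 in EpiSC-like cells and 437 ± 146 in ESC (SD, n = 2), a ratio of 0.399. EpiSC-like minus ESC was -1.22 ± 0.32 (adjusted p = 0.130; -0.80 and -1.63 in the sets) and, of the settings tried, passed only when genes below the median were left out (adjusted p = 0.0399). Day 7 minus ESC was -0.67 ± 0.32 (adjusted p = 0.329; -0.59 and -0.75 in the sets) and day 7 minus EpiSC-like 0.54 ± 0.32 (adjusted p = 0.509; 0.21 and 0.88).

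Taken as a list, 1 of the 9 genes was called for EpiSC-like cells against ESC, the fall of Phlda2, where 1.9% of all 18193 genes were called (1.33% higher, 0.572% lower). Groups did not overlap for 7 members (4 higher, 3 lower), where this held for 44.8% of all genes (25% higher, 19.8% lower). The median log2 difference of the 9 was 0.34, against 0.03 over all genes, but it was -0.01 in the replicate 1 set and 0.69 in the replicate 2 set. For day 7 against ESC, 1 of 9 was called, again Phlda2, where 1.05% of all genes were called (0.764% higher, 0.286% lower). Here 5 did not overlap (3 higher, 2 lower), where this held for 50.2% of all genes (26.7% and 23.5%), and the median was -0.02, against 0.02 over all genes. For day 7 against EpiSC-like cells limma called 0 of the 9 and 0% of all genes, although 3 of the 9 and 2573 of 18193 genes had an unadjusted p under 0.05, and trended, robust moderation called 241 genes and 0 members. In this comparison 7 members did not overlap (3 higher, 4 lower), where this held for 45.9% of all genes (21.4% and 24.5%). The comparisons share arrays, so their values are not independent. With every array centred on its own median, the median difference over all genes became -0.13 for EpiSC-like cells against ESC and -0.20 for day 7 against ESC. It also changed the split of calls to 184 higher and 149 lower, against 242 and 104, and to 94 and 82, against 139 and 52.

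Of 48 other imprinted genes, 42 were measured, and 0 passed in any of the 3 comparisons. Over all genes 1.9% passed in EpiSC-like minus ESC, 1.05% in day 7 minus ESC and 0% in day 7 minus EpiSC-like. EpiSC-like minus ESC was above 0 for 26 and below 0 for 16, with a median of 0.29. Day 7 minus ESC was above 0 for 27 and below 0 for 15, with a median of 0.34. Over all genes 52.4% and 51.4% were above 0. Unadjusted p-values under 0.05 were held by 12 of the 42 in EpiSC-like minus ESC, 11 in day 7 minus ESC and 13 in day 7 minus EpiSC-like (28.6%, 26.2% and 31%), where 16%, 18.3% and 14.1% of all genes had one. The 6 with the highest mean signal included the noncoding RNAs Meg3 and Rian, maternally expressed from the Dlk1 region. Meg3 had 5029 and 7007 units in ESC, 7948 and 14909 in EpiSC-like cells and 7752 and 14901 at day 7 (EpiSC-like minus ESC 0.87 ± 0.44). Rian had 2791 and 3588 in ESC, 5923 and 7428 in EpiSC-like cells and 4127 and 3785 at day 7 (EpiSC-like minus ESC 1.06 ± 0.25, adjusted p = 0.104). The rest of the 6 were Cd81 (0.12), Impact (-0.08), Gnas (0.70) and Ube3a (0.05), all as EpiSC-like minus ESC.

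Listed imprinted genes near members gave values that did not always move with the member. Not all of them directly adjoin a member in the genome annotation, and not every adjoining gene is given, such as Nap1l4 beside Phlda2. Beside Phlda2, the transporter gene Slc22a18 stood at -0.40 ± 0.49 for EpiSC-like minus ESC. Cdkn1c, a cell cycle inhibitor of the same maternally expressed domain, read 1386 and 1513 at day 7, against 523 and 251 in ESC (1.95 ± 0.36, adjusted p = 0.0660), where Phlda2 was lower. Ascl2, a trophoblast transcription factor of that region, read 57.2 and 16.04 in EpiSC-like cells, against 194 and 252 in ESC (-2.29 ± 0.41, adjusted p = 0.0528), and 242 and 198 at day 7. The antisense RNA Kcnq1ot1, transcribed from the paternal copy there, stood at -0.40 ± 0.38 for EpiSC-like minus ESC and 0.53 ± 0.38 for day 7 minus ESC. Usp29, next to Peg3, read 64.6 and 93.2 at day 7, against 8.52 and 17.2 in ESC (1.72 ± 0.31, adjusted p = 0.0628). Zim1, on the other side of Peg3 and maternally expressed, was picked out after its values were seen: it read 4.15 and 12.9 at day 7, against 32.03 and 39.9 in ESC (-1.10 ± 0.28, adjusted p = 0.115). Every Zim1 reading and both ESC readings of Usp29 were below the median signal of their arrays, so presence or absence of these RNAs there cannot be stated. Sgce, which adjoins Peg10, read 560 and 851 at day 7, against 253 and 277 in ESC (1.33 ± 0.32, adjusted p = 0.110). Copg2, beside Mest, stood at 0.68 ± 0.32 and Ins2, near Igf2, at 0.23 ± 0.68 for day 7 minus ESC.

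**Figure D4:**
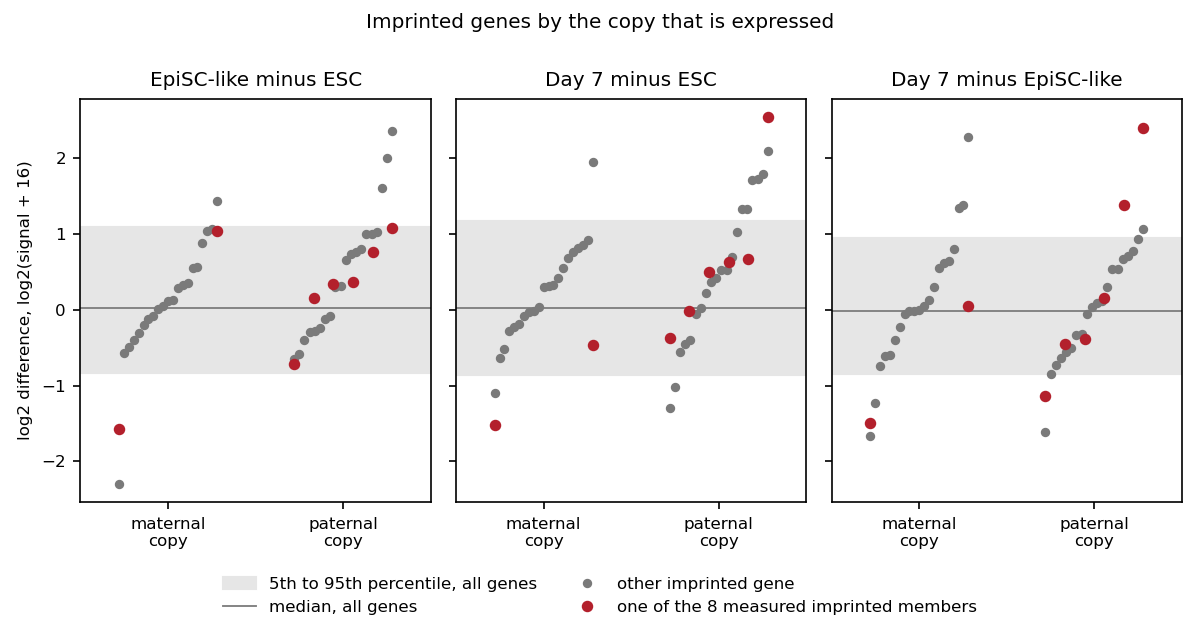
Log2 differences on the log2(signal + 16) scale of imprinted genes, with red for measured members and grey for other imprinted genes. The split is by the copy listed as expressed in mice, which was not determined in these cells. The band is the 5th to 95th percentile and the line the median of all 18193 genes. Medians of the maternal and paternal groups are 0.12 and 0.35 for EpiSC-like minus ESC and 0.04 and 0.51 for day 7 minus ESC, and most points lie inside the band.

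Split by the copy listed as expressed in mice, 23 maternally and 26 paternally expressed genes were measured, members included. Grb10 was counted as maternal, and Gnas, listed as tissue-dependent, was left out. The expressed copy can depend on the tissue, as for Grb10, and was not determined in these cells. For EpiSC-like cells against ESC 14 of 23 maternal and 17 of 26 paternal genes were above 0, with medians of 0.12 and 0.35, where 52.4% of all genes were above 0. These medians were 0.005 and 0.08 in the replicate 1 set and 0.08 and 0.69 in the replicate 2 set. For day 7 against ESC 12 of 23 and 18 of 26 were above 0, with medians of 0.04 and 0.51. In the replicate 1 set the day 7 medians were 0.10 and 0.13 and in the replicate 2 set 0.08 and 0.85. Of the maternal genes Phlda2 was the only one called, and of the paternal genes 0 were called in any comparison. Of all genes 1.9% were called in EpiSC-like cells and 1.05% at day 7 against ESC. The difference between the 2 kinds of gene was not tested.

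Of 9 genes that maintain or set imprints besides Zfp57, 0 passed in limma in any comparison. Over all genes 1.9% passed in EpiSC-like minus ESC, 1.05% in day 7 minus ESC and 0% in day 7 minus EpiSC-like. In the same order 3, 1 and 1 of the 9 had an unadjusted p under 0.05, where 16%, 18.3% and 14.1% of all genes had one. Trim28, the corepressor recruited by ZFP57, was among the brightest and stood at -0.23 ± 0.30 for EpiSC-like minus ESC. The maintenance methyltransferase Dnmt1 stood at -0.19 ± 0.22, its partner Uhrf1 at 0.05 ± 0.34, the insulator protein Ctcf at 0.33 ± 0.25 and the imprint-binding zinc finger Zfp445 at 0.30 ± 0.25. Dnmt3l, the cofactor of de novo methylation in germ cells, read 3669 and 4309 in EpiSC-like cells, against 8808 and 11717 in ESC (-1.35 ± 0.26, adjusted p = 0.0640). Dnmt3a, a de novo methyltransferase picked out after its values were seen, read 6728 and 4725 in EpiSC-like cells, against 1914 and 583 in ESC (2.40 ± 0.59, adjusted p = 0.112).

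In the insulin-like growth factor pathway, on which Igf2 and Grb10 act, 15 of 16 genes were measured and 3 were called against ESC: 2 in EpiSC-like cells, where 1.9% of all genes were called, and 1 at day 7, where 1.05% were. The receptor substrates Irs1 and Irs4 rose in EpiSC-like cells. Irs1 read 149 and 196 in EpiSC-like cells, against 51.0 and 26.6 in ESC (1.81 ± 0.30, adjusted p = 0.0462), and Irs4 229 and 177, against 35.7 and 35.9 (2.07 ± 0.34, adjusted p = 0.0460). At day 7 Irs1 read 167 and 191 (1.86 ± 0.30 against ESC, adjusted p = 0.0522), and Irs4 96.9 and 44.3 (0.67 ± 0.34, adjusted p = 0.358). The binding protein Igfbp5 rose at day 7, with 299 and 378 against 27.5 and 11.0 in ESC (3.36 ± 0.31, adjusted p = 0.0287). In EpiSC-like cells Igfbp5 read 69.3 and 88.3 (1.46 ± 0.31 against ESC, adjusted p = 0.0781). The receptor gene Igf1r read 254 and 150 in ESC, 709 and 529 in EpiSC-like cells and 708 and 610 at day 7, and did not pass against ESC at either stage (adjusted p = 0.0678 in EpiSC-like cells and 0.0697 at day 7). Igf2r, the imprinted receptor that clears IGF2, read 3367 and 2285 at day 7, against 1427 and 1727 in ESC (0.81 ± 0.28, adjusted p = 0.202). Of the 15 genes 13 were above 0 in EpiSC-like cells and 14 at day 7, with medians of 0.57 and 0.89, where 52.4% and 51.4% of all genes were above 0. Igfbp2, Igfbp4, Igf2bp1 and Igf2bp3 stood at 0.85, 2.42, -0.47 and 0.18 for day 7 minus ESC. Igfbp1, picked out after its values were seen, read 45.8 and 946 on the 2 day 7 arrays, and the higher reading is on the array that had the higher Igf2 and endoderm marker signals.

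For each of the 7 members whose level reached the median gene, the genes with the most similar profile were taken by Pearson's r of log2 values over the 6 arrays. They were Mrpl32 and Uchl5 for Phlda2 (r = 0.994 and 0.994), Gli3 and Efnb2 for Peg3 (0.998 and 0.998), and Acta1 and Pcbp4 for Grb10 (0.992 and 0.987). For Plagl1 they were Pofut1 and Mavs (0.993 and 0.988), and for Mest Mapk4 and Tmem98 (0.987 and 0.986). For Zfp57 they were Spint2 and Gpr19 (0.994 and 0.990), and for Igf2 Fryl and Pigyl (0.984 and 0.976). The 6 points share 3 groups and 2 array sets, and the values describe the best of many genes.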

How the data were processed

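Each deposited value is the intensity of a probe set on a linear scale. The arrays share a trimmed mean of 500, to which the authors' values had been scaled, as the files show. Affymetrix Expression Console version 1 is named per the submitters' processing notes, its role and algorithm not given in the sources used here, nor the genome build. The small number of arrays limits precision. Of 45101 probe sets, 34945 carried 1 gene and 932 several, leaving out 64 controls, and 9211 carried none, with controls counted. RefSeq GRCm38.p6 held the gene identifiers of 34741 and changed 0 symbols. The probe set of highest mean stood for its gene. Log2(signal + 16) values were fitted with limma 3.58.1 (R 4.3.3) in 3 group means with no block, leaving 3 residual degrees of freedom. Members and lists were chosen with earlier results of these data known. Named were all members, called genes of 3 lists, their 6 brightest uncalled genes, a fixed list of genes near members and 2 genes of most similar profile per member. Deviations of arrays with the same replicate number correlated with r of 0.286, 0.077 and 0.094 between groups, all above 0. These values do not settle whether the numbers pair the arrays. The main fit left the number out, and its calls were lost in the fit with the number as a block, which called 0 genes. Alternatives were 2 other pseudocounts, 2 filters, 2 normalizations, 2 other uses of probe sets, a replicate block, fits of 2 groups, another moderation and leaving out each array.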

Additional observations from a re-analysis of the deposited data

How the results depend on the processing

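With 2 arrays a group, calls depended on the settings more than the size of differences did. EpiSC-like cells against ESC gave 346 called genes, and 86 with all probe sets as features, 769 with trended, robust moderation, 655 and 715 without genes below the 25th percentile and below the median, 40 from a fit of only these groups, 666 with a pseudocount of 64, and 0 with a pseudocount of 1 or the replicate block. Day 7 against ESC gave 191, and in the same order 0, 778, 556, 832, 0, 661, 0 and 0. Day 7 against EpiSC-like cells gave 0, and 10 with centred arrays, 241 with that moderation, 138 and 313 with the filters, 8 with the mean of a gene's probe sets and 209 with a pseudocount of 64. Leaving out 1 array gave 0 to 62, 0 to 3 and 0 genes. The replicate block called 0 genes and 0 members in each comparison (smallest adjusted p = 0.0526, 0.0668 and 0.125). With it 3365, 3925 and 3057 genes had an unadjusted p under 0.05, against 2903, 3338 and 2573 in the main fit.

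Of the members, EpiSC-like cells against ESC gave 1 call, and 0 with all probe sets, with only these groups, with a pseudocount of 1, with the block and without any 1 array. It gave 2 with trended moderation, the 25th percentile filter and a pseudocount of 64, and 3 with the median filter. Day 7 against ESC gave 1, and 0 with the first 5 of these and with quantile normalization. Day 7 against EpiSC-like cells gave 0, and 1 with the median filter. Of 453 member values under alternatives, 409 kept direction and side of the threshold, 21 lost a call (all of Phlda2), 6 gained one and 17 changed sign, none of them called. With centred arrays the sign changed for Plagl1, EpiSC-like minus ESC (-0.0028), and Phlda2, day 7 minus EpiSC-like (-0.0105). With the mean of probe sets it changed for Dlk1 (-0.18, -0.52 and -0.33 in the 3 comparisons) and Grb10, day 7 minus ESC (0.0481). Leaving out 1 array at a time gave ranges across 0 for Plagl1, EpiSC-like minus ESC (-1.30 to 1.60, -0.25 without EpiSC-like replicate 1), and for day 7 minus EpiSC-like in Phlda2 (-0.0775 to 0.187) and Dlk1 (-0.0611 to 0.368). For day 7 minus ESC the ranges crossed 0 in Peg10 (-0.21 to 0.17), Mest (-0.96 to 0.22) and Igf2 (-0.11 to 1.45). The filters hold fewer genes, and the filter at the median left Peg10 and Dlk1 with no value. A lone array left in a group was assumed to vary like the others. The cause of the other changes was not tested.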
